A study of Mus musculus with 23 samples.

Results

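Residual macrophages of vavCre mouse pups were compared between spleen and bone marrow at postnatal day 7. The comparison uses 6 of the series' 23 libraries, chosen by their labels alone. Of these, 3 are from spleen of vavCre pups (RPM_d7_vavCre) and 3 from bone marrow of vavCre pups (BMM_d7_vavCre). All 22524 genes of the table that holds them were read, and 15130 with enough signal were tested. The labels call the spleen cells red pulp macrophages and use BMM for the marrow cells, which the series' design text calls EIM-like, after erythroblastic island macrophages. Every animal was of the C57BL/6 strain. In vavCre mice the Vav promoter, active across blood-forming cells, drives Cre recombinase. The labels do not state the floxed gene, but the design text describes the cells as Pparg-deficient and few in number, so each group holds what was left of a population and not a normal one. The 6 wild-type libraries of the same table, 3 of spleen (RPM_d7_WT) and 3 of marrow (BMM_d7_WT), give the tissue difference in animals without the deletion. Each library was made from 1000 sorted cells. No label says whether replicates came from separate animals, so p-values measure only the spread between these libraries. Each group held libraries with high and with low Y-linked signal, so the libraries of a group were not all repeats of 1 animal, and how much of their spread is technical is not known.

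Red pulp macrophages take up aged red blood cells in the spleen, break down their heme and return the iron to the blood through ferroportin. Erythroblastic island macrophages of the marrow hold maturing erythroblasts through adhesion molecules such as VCAM1 and clear the nuclei they expel. Both depend on the transcription factor SPIC, and PPARγ is a nuclear receptor that turns on genes of fatty acid uptake and storage and is needed by several tissue macrophages.

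The values are normalised read counts, in which each library was scaled to a similar total. Reads recovered from the values numbered 12005359 to 17139955 per vavCre spleen library and 4262488 to 7879384 per vavCre marrow library. A single read is thus worth 0.614 to 0.848 units in spleen and 1.21 to 2.26 units in marrow, so depth moved with tissue and the 2 cannot be told apart for genes near the detection limit. Pearson correlations of log2 values were 0.942 to 0.943 between vavCre spleen libraries, 0.915 to 0.919 between vavCre marrow libraries and 0.908 to 0.916 across the tissues. Macrophage genes were abundant in both tissues. Adgre1, which encodes F4/80, had 15240, 12300 and 13990 in vavCre spleen and 12280, 10480 and 9415 in vavCre marrow. Csf1r, the receptor for the macrophage growth factor CSF1, had 21770, 23330 and 23570 in vavCre spleen and 18490, 16340 and 23770 in vavCre marrow. Neither gene passed the limma test described next (adjusted p = 0.115 in Adgre1 and adjusted p = 0.28 in Csf1r). Because these are bulk samples, fewer cells of one type and less RNA per cell cannot be told apart.

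The test was limma on log2(value + 1), with 1 mean for each of the 4 day-7 groups, and a gene was called at a Benjamini-Hochberg adjusted p under 0.05. Differences are spleen minus marrow on that log2 scale, which understates differences of low genes. Between vavCre spleen and vavCre marrow, 529 genes were called, 3.5% of those tested. Of these, 405 were higher in spleen (2.68% of tested genes) and 124 were lower (0.82%), while the median over all tested genes was 0.03. Libraries of the tissues did not overlap for 523 of the called genes, and for 19.5% of all tested genes (10.8% higher and 8.69% lower in spleen).

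In wild type, 588 genes were called (3.89%), 313 higher (2.07%) and 275 lower (1.82%) in spleen. No library entered the means of both comparisons, but 1 fit of all 12 libraries gave the spread used in each. The comparisons had 240 genes called with the same sign, which is 45.4% of the vavCre calls and 40.8% of the wild-type calls. Of these, 174 were higher in spleen and 66 were lower. A further 288 genes were called in vavCre alone, 230 higher and 58 lower, and 240 of them had the same sign in wild type. Being called in one genotype and not in the other does not show a difference between them. The test of that difference, the vavCre difference minus the wild-type difference, called 18 genes (0.119%). In 17 of them the difference was higher in vavCre (0.112%) and in 1 lower (0.00661%), and 935 genes had an unadjusted p under 0.05. The share of calls higher in spleen was 76.6% in vavCre, and 61.7% (586 higher, 364 lower) when DESeq2 was run on the recovered reads. Leaving out vavCre spleen replicate 1, 2 or 3 lowered the number of vavCre calls to 270, 327 or 319. With the genotypes fitted apart, the genes shared by the comparisons numbered 155.

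**Figure D1:**
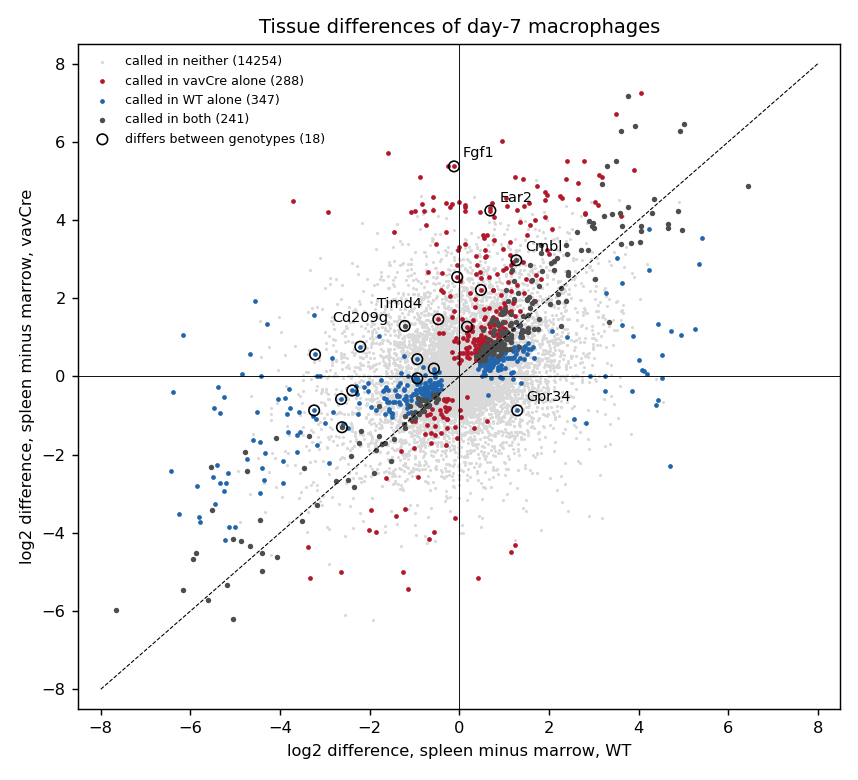
Spleen minus marrow log2 difference of each of the 15130 tested genes in vavCre (vertical axis) and in wild type (horizontal axis), coloured by the comparison that called it, with a dashed line of equal difference. Rings mark the 18 genes whose difference differed between the genotypes, most of them above the line.

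Among 17 genes of red pulp and island macrophage identity, 8 were called higher in vavCre spleen and 0 lower, with a median of 0.75. In wild type 9 were higher and 0 lower, with a median of 0.87. Pparg itself (chromosome 6, 115360951 to 115490399, plus strand, GRCm38) had 4002, 2496 and 2613 in vavCre spleen and 2972, 2088 and 1813 in vavCre marrow. The ranges overlapped, and the difference of 0.40 ± 0.20 (SE) did not pass the test (adjusted p = 0.314). Transcript reads from Pparg were thus present in all 6 vavCre libraries, and gene-level values do not show whether a deleted exon was among them.

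Spic (chromosome 10, 88674772 to 88685015, minus strand) had 10010, 9352 and 8417 in vavCre spleen and 4934, 5424 and 6215 in vavCre marrow. Every spleen library lay above every marrow library, and the difference was 0.75 ± 0.12 (adjusted p = 0.00108). In wild type the same gene differed by 1.34 between tissues, and the test between the genotypes did not pass (adjusted p = 0.415). The tissue difference in Spic was therefore present in vavCre, and a change in its size was not shown.

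The spleen-enriched surface genes of this list kept large differences. Ccr3, a chemokine receptor that also marks eosinophils, had 2920, 4817 and 4416 in vavCre spleen and 201, 138 and 392 in vavCre marrow, a difference of 4.15 ± 0.28 (adjusted p = 6.8e-08). Treml4, a receptor of the TREM family that binds dying cells, had 2039, 1729 and 2141 in vavCre spleen and 324, 152 and 222 in vavCre marrow (3.14 ± 0.22, adjusted p = 8.3e-08). Cd163, the receptor for haptoglobin-hemoglobin complexes, had 720.5, 498 and 847 in vavCre spleen and 44, 57 and 104 in vavCre marrow (3.37 ± 0.32, adjusted p = 3.1e-06). None of these groups overlapped, and all 3 genes were also higher in wild-type spleen, by 3.40, 2.39 and 2.37.

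Hs3st2, a heparan sulfate sulfotransferase, had 42.4, 28.8 and 18.2 in vavCre spleen and no reads in vavCre marrow (adjusted p = 0.00157). Its spleen mean was 5.35-fold a marrow floor of 3 reads per library. The wild-type libraries also separated, with 512, 696 and 801 in spleen and 12.1, 2.63 and 8.36 in marrow. Itgad, the integrin αD subunit found on red pulp macrophages, had 158, 184 and 42.8 in vavCre spleen and 0, 8.48 and 18.1 in vavCre marrow (4.26 ± 0.91, adjusted p = 0.029). That call was lost in 7 alternatives, among them leaving out vavCre spleen replicate 1 (adjusted p = 0.14), vavCre spleen replicate 2 (0.116) or vavCre marrow replicate 2 (0.0702).

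Vcam1, the adhesion molecule that binds VLA-4 on erythroblasts, had 34620, 36170 and 32840 in vavCre spleen and 15970, 13590 and 13580 in vavCre marrow. The groups were far apart relative to their spread, with a difference of 1.27 ± 0.09 (adjusted p = 8.3e-08). In wild type the levels were 56220, 57970 and 64210 in spleen and 54420, 46330 and 58170 in marrow, a difference of 0.17 (adjusted p = 0.395). The tissue difference in vavCre exceeded that in wild type by 1.10 ± 0.13 (adjusted p = 0.000584), so this is a tissue difference that appeared in the vavCre cells.

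**Figure D2:**
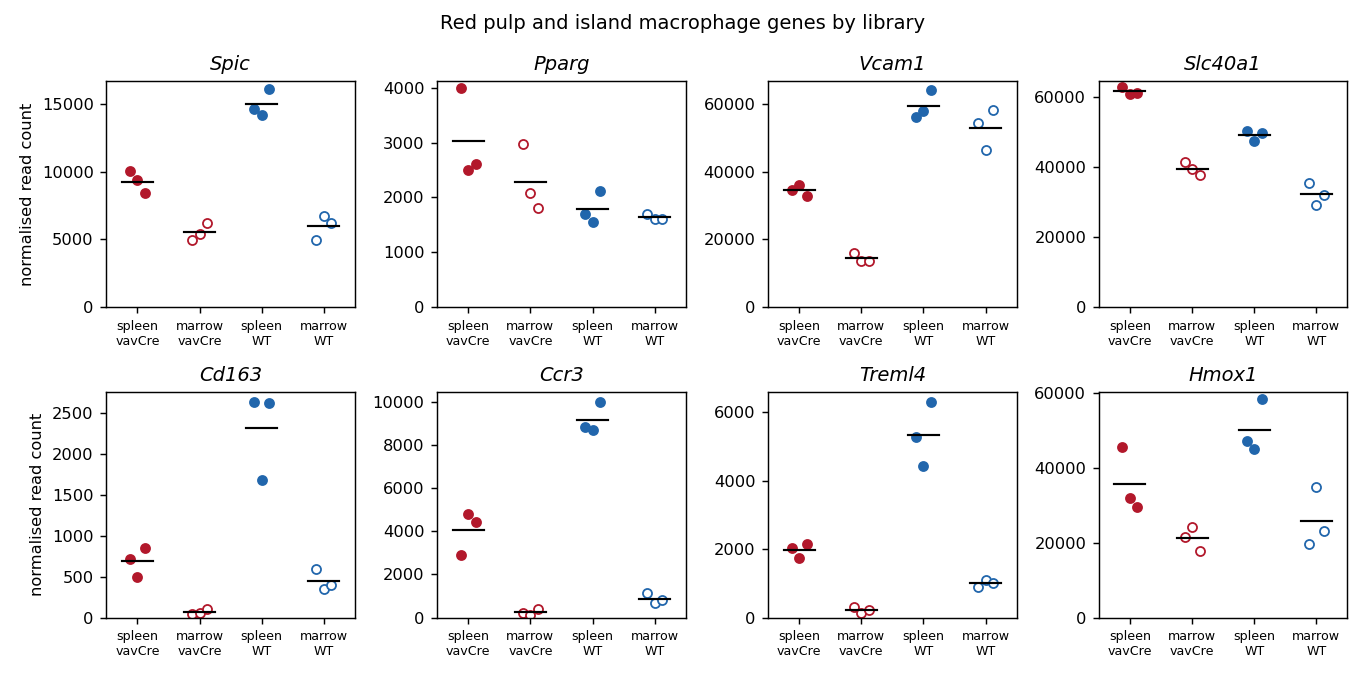
Normalised read counts of 8 red pulp and island macrophage genes in each library, with filled points for spleen and open points for marrow, vavCre in red and wild type in blue, and bars at group means. Spic, Slc40a1, Cd163, Ccr3 and Treml4 separated the tissues in both genotypes, Vcam1 separated them in vavCre, and Pparg in neither.

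Of 25 tested genes for iron and heme handling, 5 were called higher in vavCre spleen and 0 lower, with a median of 0.26. Besides Cd163 these were the iron exporter ferroportin (Slc40a1), the lysosomal iron transporter Slc11a1, ferritin light chain (Ftl1) and biliverdin reductase B (Blvrb). Slc40a1 had 62910, 60840 and 61270 in vavCre spleen and 41320, 39420 and 37600 in vavCre marrow, a difference of 0.65 ± 0.08 (adjusted p = 3.0e-05). All 5 were also higher in wild-type spleen, where Slc40a1 differed by 0.61. Heme oxygenase (Hmox1) had 45580, 32050 and 29650 in vavCre spleen and 21690, 24260 and 17940 in vavCre marrow. Its groups did not overlap, but it missed the threshold (0.73 ± 0.21, adjusted p = 0.0761). The calls of Slc11a1 and Ftl1 were lost without vavCre spleen replicate 1 (adjusted p = 0.0548 and 0.115), that of Ftl1 also without vavCre spleen replicate 3 or vavCre marrow replicate 1 or 2, and that of Blvrb in 16 alternatives (adjusted p up to 0.165, without vavCre marrow replicate 2). Without vavCre spleen replicate 1 the count was 2 higher.

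Genes for adhesion to and support of erythroblasts had 6 of 17 called higher in vavCre spleen and 0 lower (median 0.51), against 2 higher in wild type (median 0.17). Beyond Vcam1 and Cd163 they were Axl, Itgav, Cd44 and Selplg. Axl, a receptor tyrosine kinase for dying cells, had 5596, 6175 and 4940 in vavCre spleen and 3383, 1861 and 2926 in vavCre marrow (1.07 ± 0.16, adjusted p = 0.000373). Cd44, the hyaluronan receptor, had 6567, 6060 and 6257 in vavCre spleen and 3663, 3920 and 3970 in vavCre marrow (0.71 ± 0.10, adjusted p = 0.000202). Neither gene's groups overlapped. Axl differed by 0.19 in wild type, but the test between genotypes did not pass (adjusted p = 0.261). The call of Itgav was lost in 16 alternatives (adjusted p up to 0.181, without vavCre spleen replicate 3) and that of Selplg in 6, any vavCre spleen library among them (up to 0.0852, without replicate 1).

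Scavenger and dying-cell receptors had 7 of 28 called higher and 2 lower in vavCre spleen (median 0.40), against 5 higher and 4 lower in wild type (median 0.14). Timd4, which encodes the phosphatidylserine receptor TIM-4 of long-lived resident macrophages, had 6424, 5297 and 5132 in vavCre spleen and 2998, 1990 and 1410 in vavCre marrow. The groups were apart by 1.46 ± 0.19 (adjusted p = 0.000121). In wild type the order was the other way, with 2690, 3223 and 2632 in spleen and 4052, 3709 and 4044 in marrow, a difference of -0.47 that did not pass (adjusted p = 0.226). The test between the genotypes gave 1.93 ± 0.27 (adjusted p = 0.00259).

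Marco, a scavenger receptor for bacteria and particles, had 17920, 16480 and 18840 in vavCre spleen and 6179, 7723 and 7433 in vavCre marrow (1.32 ± 0.18, adjusted p = 0.000193). Its wild-type difference was nearly the same size, 1.36. Colec12, a collectin scavenger receptor, was lower, with 292, 464 and 458 in vavCre spleen and 1271, 1187 and 1451 in vavCre marrow (-1.71 ± 0.29, adjusted p = 0.00141). Cxcl16, a membrane chemokine that also binds oxidised lipoprotein, had 768, 498 and 574 in vavCre spleen and 1700, 1371 and 1700 in vavCre marrow (-1.39 ± 0.29, adjusted p = 0.00826). Both were called lower in wild-type spleen too (-2.25 and -2.19). Without vavCre spleen replicate 2 the Cxcl16 call was lost (adjusted p = 0.0518).

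Immediate early and dissociation stress genes formed the group with the most calls. These genes, transcription factors and feedback inhibitors such as Fos, Egr1 and Dusp1, respond within minutes to growth factors, stress or tissue digestion. Of 27 tested, 20 were called higher in vavCre spleen and 0 lower, and the median of 2.47 stands beside 0.03 over all genes. In wild type 14 were higher, all of them among the 20, with a median of 1.67. The test between genotypes called 0 of the 27. Libraries of the tissues did not overlap for 21 of the 27 in vavCre.

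Promoter stretches of 2 called members are shown because these genes moved together and immediate early genes are known as targets of the factors CREB and SRF. The sequences are from RefSeq (GRCm38), cover the 250 bases before the gene's start, and read 5′ to 3′ on the gene's strand. Capitals mark a cyclic AMP response element (TGACGTCA) in Btg2 (chr1:134079156-134079405, minus strand) and a serum response element core, the CArG box, in Egr2 (chr10:67537619-67537868, plus strand).
Btg2: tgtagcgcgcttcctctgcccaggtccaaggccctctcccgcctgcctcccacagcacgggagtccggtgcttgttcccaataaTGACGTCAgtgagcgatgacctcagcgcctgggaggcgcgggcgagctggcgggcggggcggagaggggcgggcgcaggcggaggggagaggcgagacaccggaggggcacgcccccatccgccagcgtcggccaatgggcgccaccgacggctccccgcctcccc
Egr2: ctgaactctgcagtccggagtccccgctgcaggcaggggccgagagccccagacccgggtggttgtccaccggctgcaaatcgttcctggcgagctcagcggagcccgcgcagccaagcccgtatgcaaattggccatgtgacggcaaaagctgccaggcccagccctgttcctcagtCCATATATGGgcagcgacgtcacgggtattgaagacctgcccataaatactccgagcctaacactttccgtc
Windows, 21 in number, were found for 17 of the 20 called genes. The first motif was in 2 of the 17, Btg2 and Dusp1, and in 1.55% of all 32851 windows. The CArG box was in 2, Egr2 and Zfp36, and in 1.47% of all windows. Counts by gene and shares of single windows are unlike measures, so they do not show an excess. The matching window of Zfp36 lay wholly within annotated exons. Both motifs read the same on both strands, and none of these genes held both. A match is a description of the letters and shows no binding.

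Fos, a subunit of the factor AP-1, had 4643, 6572 and 7788 in vavCre spleen and 579.8, 205 and 559 in vavCre marrow, a difference of 3.93 ± 0.40 (adjusted p = 7.8e-05). Fosb had 462, 1296 and 1728 in vavCre spleen and 6.28, 24.2 and 79.2 in vavCre marrow (5.37 ± 0.67, adjusted p = 5.6e-05). Every spleen library was several-fold above every marrow library in both genes. Jun, their partner, had 582, 1173 and 1286 in vavCre spleen and 186, 281 and 206 in vavCre marrow (2.11 ± 0.33, adjusted p = 0.0008). Junb had 985, 956 and 763 in vavCre spleen and 161, 179 and 143 in vavCre marrow (2.47 ± 0.28, adjusted p = 2.2e-05). Jund, which is known to be expressed more steadily, did not pass (0.09 ± 0.34, adjusted p = 0.937).

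Egr1, a zinc finger factor, had 1771, 3044 and 3483 in vavCre spleen and 193, 133 and 145 in vavCre marrow (4.09 ± 0.36, adjusted p = 8.5e-07). Dusp1, a phosphatase that shuts off MAP kinases, had 1630, 2206 and 3802 in vavCre spleen and 79.5, 86.1 and 239.9 in vavCre marrow (4.33 ± 0.38, adjusted p = 8.5e-07). The mRNA decay factor Zfp36 had 2626, 3814 and 3727 in vavCre spleen and 758, 794 and 1109 in vavCre marrow (1.93 ± 0.20, adjusted p = 7.8e-06). The antiproliferative gene Btg2, shown above, was close among spleen libraries, with 1301, 1359 and 1339 against 435, 281 and 310.1 in vavCre marrow (1.98 ± 0.20, adjusted p = 6.6e-06). In Fos, Fosb, Egr1 and Jun, vavCre spleen replicate 1 was the lowest of the spleen libraries.

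The nuclear receptors of the same class were also higher. Nr4a1 had 398, 774 and 686 in vavCre spleen and 52.3, 17 and 81.5 in vavCre marrow (3.80 ± 0.47, adjusted p = 5.0e-05). Nr4a2 had 25.2, 112 and 201 in vavCre spleen and 1 read in all of vavCre marrow, a ratio of 183 with a 95% counting interval of 32.6 to 7231 (adjusted p = 0.00125). Such intervals cover counting error only. In wild type Nr4a2 differed by 0.96 and did not pass (adjusted p = 0.718), and the test between genotypes did not pass either (0.367). Heat shock genes, another mark of cell stress, were called only in part, with Hspa1a and Hsp90aa1 among those called higher. Hspa1a had 73.7, 639 and 351 in vavCre spleen and 0, 17 and 9.05 in vavCre marrow (5.50 ± 1.03, adjusted p = 0.00358), while Hspa8 and Dnajb1 did not pass. Of the 20 calls, 16 held under every alternative that was run, and those of Klf2, Egr2, Dusp2 and Hsp90aa1 did not. The Egr2 call was lost without any 1 vavCre spleen library or without vavCre marrow replicate 1 (adjusted p up to 0.0791), and the Klf2 call in edgeR or without vavCre marrow replicate 2 (up to 0.125).

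**Figure D3:**
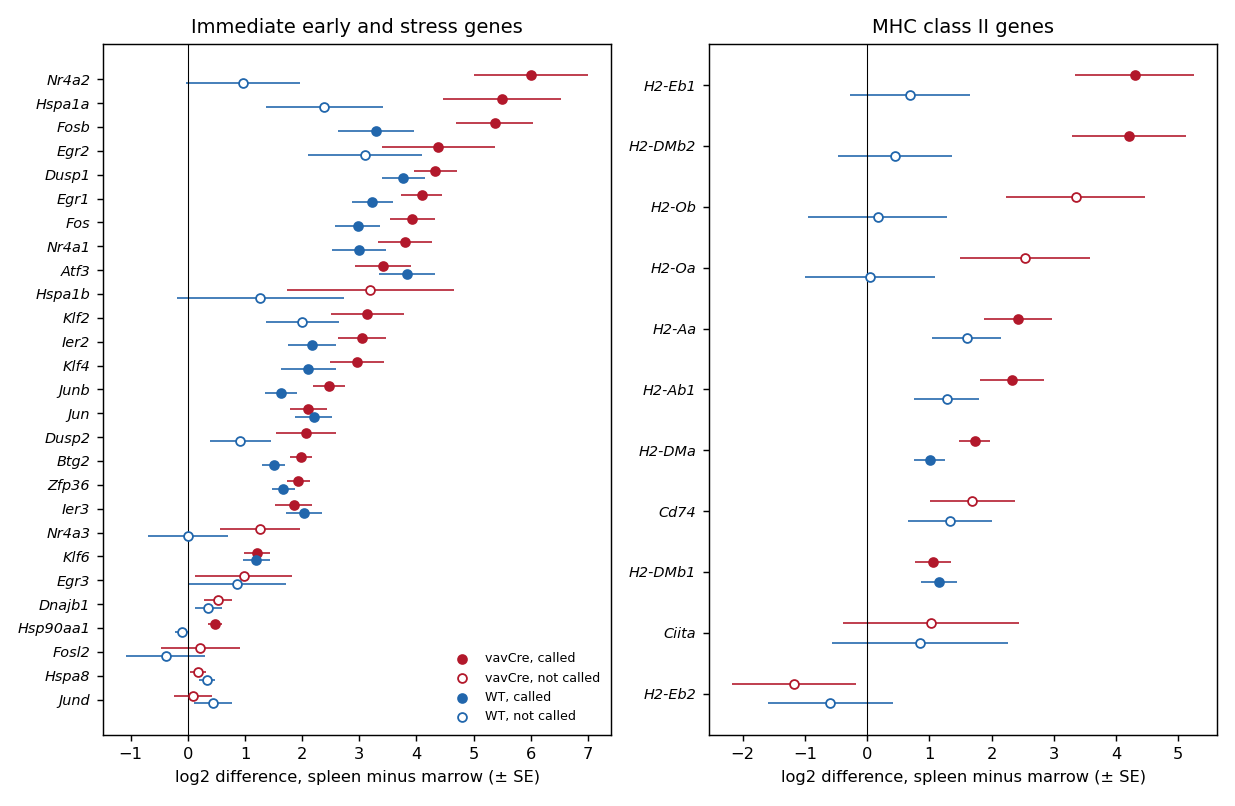
Spleen minus marrow log2 difference (± SE) of the 27 immediate early and stress genes (left) and the 11 MHC class II genes (right), with vavCre in red above wild type in blue and filled points for called genes. All 27 immediate early values are above 0 in vavCre, with 20 called.

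MHC class II genes, which present peptides to helper T cells, had 6 of 11 called higher in vavCre spleen and 0 lower (median 2.33), against 2 higher in wild type (median 0.85). The test between genotypes called 0 of the 11. H2-DMa, a chaperone of peptide loading, had 1501, 1134 and 1452 in vavCre spleen and 356, 452 and 419 in vavCre marrow (1.73 ± 0.25, adjusted p = 0.000366). The classical chain H2-Ab1 had 528, 436 and 115 in vavCre spleen and 29.3, 88.5 and 77 in vavCre marrow (2.33 ± 0.52, adjusted p = 0.0156). H2-Eb1 had 342, 238 and 44.4 in vavCre spleen and 0, 27.9 and 15.8 in vavCre marrow (4.30 ± 0.96, adjusted p = 0.0155). In both classical genes vavCre spleen replicate 3 was several-fold below the other spleen libraries and only just above marrow. Cd74, the invariant chain, had 1157, 1161 and 233 in vavCre spleen and 165, 142 and 394 in vavCre marrow, overlapped and did not pass (adjusted p = 0.24). Both calls were lost without vavCre spleen replicate 1 (adjusted p = 0.104 in H2-Ab1 and 0.0975 in H2-Eb1) or replicate 2 (0.0821 and 0.071), that of H2-Ab1 also without vavCre marrow replicate 1 (0.0731), and of the 6 calls only that of H2-DMa held under every alternative. The count was 2 without vavCre spleen replicate 1, 1 without vavCre spleen replicate 2 and 3 without vavCre marrow replicate 1. B cells and dendritic cells also carry these genes. The B cell gene Cd79a was likewise lowest in vavCre spleen replicate 3 among the spleen libraries, with 254, 332 and 15.1 in vavCre spleen and 29.3, 105 and 169.7 in vavCre marrow, and its part in the result was not tested.

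Complement genes had 8 of 20 called higher and 1 lower in vavCre spleen (median 0.51), against 1 higher and 6 lower in wild type (median 0.11). The test between genotypes called 1 of the 20. Of the 9 vavCre calls, 4 held under every alternative. The 3 chains of C1q, which tags dying cells and microbes, were all higher. C1qc had 53140, 43980 and 47120 in vavCre spleen and 36480, 34920 and 36080 in vavCre marrow (0.42 ± 0.09, adjusted p = 0.0131). Complement C2 had 2190, 2035 and 1308 in vavCre spleen and 1082, 736 and 516 in vavCre marrow (1.27 ± 0.25, adjusted p = 0.00579). The terminal component C6 had 197, 125 and 286 in vavCre spleen and 23, 13.3 and 6.79 in vavCre marrow (3.79 ± 0.68, adjusted p = 0.00249). No group overlapped in these genes. Of them, C6 was also called in wild type, with a difference of 4.65. Vsig4, the complement receptor of liver and peritoneal macrophages, had 43.6, 174 and 280 in vavCre spleen and 0, 15.8 and 2.26 in vavCre marrow (5.10 ± 1.06, adjusted p = 0.00941). The lower gene was Cd55, an inhibitor that protects cells from complement, with 1247, 1541 and 1308 in vavCre spleen and 5070, 4823 and 3540 in vavCre marrow (-1.70 ± 0.25, adjusted p = 0.000395). Cd55 was called lower in wild-type spleen as well (-1.67). The calls of C1qa, C1qb, C1qc and properdin (Cfp) were lost without vavCre spleen replicate 1 (adjusted p = 0.132, 0.145, 0.0818 and 0.147) and without some other single libraries, and that of Vsig4 without vavCre spleen replicate 2 or 3 (up to 0.0693). The count of higher genes was 4 without vavCre spleen replicate 1 or 3, and 5 without any 1 vavCre marrow library.

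Inflammatory cytokines and feedback genes of NF-κB had 7 of 23 called higher and 0 lower in vavCre spleen (median 1.22), against 4 higher and 1 lower in wild type (median 0.75). Cxcl2, which attracts neutrophils, had 148, 44.1 and 164 in vavCre spleen and no reads in vavCre marrow (adjusted p = 0.000314). Its spleen mean was 21.4-fold the floor of 3 reads per library. Ccl4, which attracts T cells and monocytes, had 920, 904 and 689 in vavCre spleen and 75.4, 137 and 186 in vavCre marrow (2.73 ± 0.51, adjusted p = 0.00345). Il1a, an alarm cytokine, had 1387, 1098 and 1267 in vavCre spleen and 322, 630.3 and 405 in vavCre marrow (1.51 ± 0.30, adjusted p = 0.00598). These 3 genes did not overlap between tissues. Il18bp, a soluble inhibitor of IL-18, was higher by 1.32 ± 0.23 (adjusted p = 0.00171). Tnf and Il6 did not pass. The calls of Il1b and Nfkbiz were lost without any 1 vavCre spleen library, and without vavCre marrow replicate 1 or 2, with adjusted p up to 0.119 and 0.118.

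Chemokines went both ways. Ccl24, an eosinophil attractant made by tissue macrophages, had 1948, 1080 and 1917 in vavCre spleen and 249, 98.2 and 192 in vavCre marrow (3.24 ± 0.33, adjusted p = 6.6e-06). Ccl8, a monocyte attractant, had 268, 219.6 and 116 in vavCre spleen and 1800, 848 and 690.3 in vavCre marrow (-2.42 ± 0.55, adjusted p = 0.0168). The groups did not overlap in either gene, and both had the same direction in wild type, with 2.86 and -4.73. Without vavCre marrow replicate 1 or vavCre spleen replicate 3 the Ccl8 call was lost (adjusted p = 0.0959 and 0.0962).

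C-type lectins had 5 of 26 called higher and 1 lower in vavCre spleen (median 0.59), against 3 higher and 3 lower in wild type (median 0.08). Cd209b, which encodes SIGN-R1 of marginal zone macrophages, had 167, 482 and 92.8 in vavCre spleen and 1 read in all of vavCre marrow, a ratio of 411 with a 95% counting interval of 73.5 to 16239.6 (adjusted p = 0.00167). Clec4n, which encodes dectin-2, had 24850, 20690 and 20210 in vavCre spleen and 7942, 11150 and 8947 in vavCre marrow (1.24 ± 0.14, adjusted p = 2.7e-05). The galactose-type lectin Clec10a was lower, with 93.9, 72.9 and 132 in vavCre spleen and 574, 435 and 629 in vavCre marrow (-2.47 ± 0.49, adjusted p = 0.00593). Without vavCre spleen replicate 1 the list had 3 genes higher, and with DESeq2 8. None of the 3 genes overlapped, and near-identical Cd209 paralogs may share reads. Marginal zone macrophage markers as a list had 3 of 9 higher (Cd209b, Marco, Clec4n) and 2 lower (Lpl, Colec12).

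PPAR target genes had 2 of 20 called higher and 3 lower in vavCre spleen (median 0.15), against 2 higher and 1 lower in wild type (median 0.40). Fabp4, a fatty acid carrier induced by PPARγ, had 4.91, 1.7 and 2.38 in vavCre spleen and 205, 89.7 and 15.8 in vavCre marrow (-4.17 ± 0.82, adjusted p = 0.00572). Its wild-type libraries overlapped, with 107, 66.5 and 226 in spleen and 203, 118 and 279 in marrow. The test between genotypes did not pass for Fabp4 (adjusted p = 0.523), and with the vavCre groups fitted alone the tissue call was lost (0.0939). Fabp5, a relative, had 1157, 856 and 783 in vavCre spleen and 2554, 4139 and 1657 in vavCre marrow (-1.50 ± 0.24, adjusted p = 0.000826). Lipoprotein lipase (Lpl) had 9281, 8272 and 8415 in vavCre spleen and 16210, 14630 and 13360 in vavCre marrow (-0.76 ± 0.13, adjusted p = 0.00152). The vavCre tissues did not overlap in any of these 3 genes. The higher genes were the mitochondrial carrier Ucp2, with 20440, 15790 and 15830 in vavCre spleen and 7293, 7643 and 8410 in vavCre marrow (1.15 ± 0.17, adjusted p = 0.000482), and the lipid droplet coat Plin2 (0.82 ± 0.16, adjusted p = 0.00627), whose call was lost without vavCre spleen replicate 1 (0.0511). Targets of LXR, the sterol receptor, had 3 of 18 higher and 0 lower (median 0.28), led by the phosphodiesterase-like Smpdl3a (1.07 ± 0.20, adjusted p = 0.00316) and the cholesterol exporter Abcg1 (0.66 ± 0.13, adjusted p = 0.00551).

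The largest differences higher in vavCre spleen included several genes with few or no marrow reads. Adgrl3, an adhesion receptor of the latrophilin family, had 526, 583 and 491 in vavCre spleen and 4.19, 8.48 and 0 in vavCre marrow (7.18 ± 0.80, adjusted p = 1.7e-05). Coch, a secreted protein of the inner ear and lymphoid organs, had 1280, 169.6 and 1024 in vavCre spleen and 12.6, 2.42 and 6.79 in vavCre marrow (6.41 ± 0.90, adjusted p = 0.00023). Tspan15, a tetraspanin, had 484, 305 and 252 in vavCre spleen and 12.6, 4.85 and 0 in vavCre marrow (6.28 ± 0.74, adjusted p = 3.0e-05). All 3 were also called higher in wild-type spleen, by 3.76, 3.91 and 3.61. The metalloprotease gene Adamdec1 (6.45 ± 1.06, adjusted p = 0.00117) and the scaffold gene Dlg2 (6.28 ± 0.94, adjusted p = 0.00044) were called in both genotypes too, Adamdec1 with overlap in neither but without a call in edgeR on recovered reads (adjusted p = 0.0772). Rgs1, which dampens chemokine receptor signalling, was the most precise of these, with 3004, 2672 and 2493 in vavCre spleen and 178, 71.5 and 122 in vavCre marrow (4.54 ± 0.33, adjusted p = 8.3e-08) and a wild-type difference of 4.35.

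Other genes of that end were not called in wild type. Adgrv1, a very large adhesion receptor, had 39.9, 21.2 and 78.5 in vavCre spleen and no reads in vavCre marrow (adjusted p = 0.00179). Its spleen mean was 8.36-fold the floor of 3 reads per library. Its wild-type libraries overlapped, with 28.4, 148 and 43.4 in spleen and 24.1, 143 and 90.9 in marrow, and the test between genotypes did not pass (adjusted p = 0.174). Smoc2, a matrix protein, had 55.9, 5.93 and 238 in vavCre spleen and no reads in vavCre marrow (adjusted p = 0.0114). Its spleen mean was 17.9-fold that floor, with replicate 2 far below the other spleen libraries. The neutrophil granule gene Ltf had 189.6, 72.1 and 405 in vavCre spleen and 16.8, 1.21 and 0 in vavCre marrow (5.71 ± 1.48, adjusted p = 0.0382). The Smoc2 call was lost without vavCre spleen replicate 1 (adjusted p = 0.0511) or replicate 3 (0.0676), and that of Ltf in 10 alternatives, without vavCre spleen replicate 3 among them (0.157).

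Genes lower in vavCre spleen included markers of early B cells and of marrow stroma. Igll1, a surrogate light chain of B cell progenitors, had 6.14, 1.7 and 3.97 in vavCre spleen and 142, 665 and 249 in vavCre marrow (-5.98 ± 0.84, adjusted p = 0.00023). Vpreb1, its partner, had 0, 8.48 and 11.9 in vavCre spleen and 136, 405 and 186 in vavCre marrow (-5.46 ± 1.05, adjusted p = 0.00468). Igfbp5, a growth factor binding protein of stromal cells, had 1.84, 2.54 and 8.73 in vavCre spleen and 389, 574 and 176 in vavCre marrow (-6.21 ± 1.12, adjusted p = 0.00264). All 3 were lower in wild-type spleen as well, with -7.66 in Igll1, -6.17 in Vpreb1 and -5.04 in Igfbp5, and none overlapped in vavCre. edgeR on the recovered reads did not call Igfbp5 in vavCre (adjusted p = 0.12).

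Over the B progenitor list, 2 of 14 genes were lower in vavCre spleen and 0 higher, against 6 lower in wild type, and its summed level was 1976 to 3068 in vavCre spleen and 2076 to 3705 in vavCre marrow. Over the marrow stroma list, 3 of 15 were lower and 0 higher, with sums of 9124 to 10378 in vavCre spleen and 14924 to 19388 in vavCre marrow. Without vavCre spleen replicate 1 or 2, or vavCre marrow replicate 1, 1 gene was lower. Its called members were Lpl, the bone matrix gene Bglap, and osteopontin (Spp1), which macrophages also make. Lpl, given above among the PPAR targets, made up most of the sum in every vavCre library of both tissues. The sums of this list thus mostly follow Lpl and are not a measure of stroma. Spp1 had 142, 182 and 130.1 in vavCre spleen and 1388, 664 and 455 in vavCre marrow (-2.31 ± 0.57, adjusted p = 0.0292), and lost its call when any 1 vavCre spleen library, or vavCre marrow replicate 1 or 2, was left out (adjusted p up to 0.149). Over the spleen stroma list, 2 of 11 were higher, Tlx1 and Tcf21, and its sums were 159 to 559 in vavCre spleen and 77.5 to 241 in vavCre marrow. Tlx1, a homeobox gene needed to form the spleen, had 89.6, 26.3 and 56.3 in vavCre spleen and 2.09, 0 and 0 in vavCre marrow, a ratio of 106 with a 95% counting interval of 18.9 to 4216 (adjusted p = 0.00324). The part of these cells in the tissue differences was not tested.

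Genes lower in vavCre spleen and on none of those lists included the actin bundler Fscn1, with 27.6, 11 and 12.7 in vavCre spleen and 412, 452 and 382 in vavCre marrow (-4.63 ± 0.55, adjusted p = 3.2e-05). Arhgef10l, a guanine nucleotide exchange factor, had 2.46, 17.8 and 27 in vavCre spleen and 322, 246 and 373 in vavCre marrow (-4.67 ± 0.85, adjusted p = 0.00301). Tspan10, a tetraspanin, had 85.9, 30.5 and 3.97 in vavCre spleen and 492, 538 and 604 in vavCre marrow (-4.51 ± 0.79, adjusted p = 0.00206). These 3 were called lower in wild-type spleen too, with -4.06 in Fscn1, -5.95 in Arhgef10l and -5.88 in Tspan10. The giant muscle gene Ttn had 77.9, 45.8 and 10.3 in vavCre spleen and 917, 945 and 1564 in vavCre marrow (-5.0 ± 0.78, adjusted p = 0.000698), while in wild type it did not pass (-2.65, adjusted p = 0.067). Gpnmb, a lysosomal glycoprotein of lipid-laden macrophages, had 19, 11 and 25.4 in vavCre spleen and 322, 601 and 254 in vavCre marrow (-4.31 ± 1.13, adjusted p = 0.0392), and was at or below 24.2 in every wild-type library. The Gpnmb call was lost in 9 alternatives, leaving out any 1 of the 6 vavCre libraries among them (adjusted p up to 0.205, at a pseudocount of 0.1). Foxc1, a stromal transcription factor, had no reads in vavCre spleen and 6.28, 55.8 and 74.7 in vavCre marrow (adjusted p = 0.02). Its marrow mean was 20.2-fold a spleen floor of 3 reads per library. The Foxc1 call was lost in 7 alternatives, among them leaving out any 1 vavCre spleen library or vavCre marrow replicate 2 or 3 (up to 0.0738). The T cell and macrophage gene Cd4 had 2966, 2851 and 2621 in vavCre spleen and 5204, 6141 and 5699 in vavCre marrow (-1.01 ± 0.17, adjusted p = 0.00164), while Cd3e was at 6.14, 13.6 and 0 in vavCre spleen and at 0 in vavCre marrow.

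Of the 18 genes whose tissue difference differed between the genotypes, 10 kept that call under every alternative run. In some the vavCre cells had the larger tissue difference, and in others wild type had it. Beside Vcam1 and Timd4, the first kind held Ear2, Dmpk, Cbr2, Cmbl and Fgf1, while Cd209g had differences of similar size and opposite sign. Ear2, an RNase of eosinophils and macrophages, had 526, 604 and 603 in vavCre spleen and 23, 13.3 and 81.5 in vavCre marrow (4.24 ± 0.41, adjusted p = 3.2e-06). Wild-type levels were 3526, 3060 and 3712 in spleen and 1760, 2019 and 2666 in marrow, a difference of 0.69, and the genotypes differed by 3.55 ± 0.58 (adjusted p = 0.0098). Both vavCre tissues were thus below both wild-type tissues, and vavCre marrow was the lowest.

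Cmbl, a hydrolase, had 1753, 1673 and 1379 in vavCre spleen and 165, 287 and 174 in vavCre marrow (2.97 ± 0.21, adjusted p = 8.3e-08), against a wild-type difference of 1.27 (adjusted p = 0.0252 for the difference between genotypes). Dmpk, a muscle-type kinase, had 288, 263 and 422 in vavCre spleen and 50.2, 84.8 and 36.2 in vavCre marrow (2.54 ± 0.33), against -0.05 in wild type (adjusted p = 0.0309). Neither gene overlapped in vavCre. Cbr2, a carbonyl reductase, ran at higher levels in vavCre, with 3569, 3395 and 3641 in vavCre spleen and 662, 880 and 769.5 in vavCre marrow (2.21 ± 0.22), while the wild-type libraries had 279, 315 and 423 in spleen and 282, 257 and 190.2 in marrow. Fgf1, a growth factor, had 93.9, 55.1 and 44.4 in vavCre spleen and 2 reads in all of vavCre marrow, a ratio of 58.7 with a 95% counting interval of 16.1 to 487, while wild type overlapped. The genotype differences of Fgf1, Dmpk, Cbr2 and Cmbl were lost without most single libraries, with adjusted p up to 0.21, 0.148, 0.13 and 0.0975, and that of Ear2 without wild-type marrow replicate 3 (0.0683) or without vavCre marrow replicate 1.

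Cd209g was the 1 gene called in both genotypes with opposite signs. It had 11510, 10390 and 7986 in vavCre spleen and 3891, 4662 and 3569 in vavCre marrow (1.29 ± 0.24, adjusted p = 0.00363). In wild type it had 102, 141 and 61.6 in spleen and 239, 213 and 226 in marrow (-1.22, adjusted p = 0.0065). Cd209f, which lies near it on chromosome 8, had 41770, 41940 and 35480 in vavCre spleen and 25250, 25550 and 19670 in vavCre marrow, with no overlap but without a call (0.76 ± 0.22, adjusted p = 0.0754). In wild type Cd209f had 474, 658 and 312 in spleen and 2753, 1523 and 2296 in marrow (-2.21, adjusted p = 9.3e-06). The differences between genotypes were 2.52 ± 0.34 (adjusted p = 0.00173) for Cd209g and 2.97 ± 0.32 (adjusted p = 0.000482) for Cd209f. Fitted on the wild-type groups alone, Cd209g lost its wild-type call (adjusted p = 0.131).

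The other kind consisted of genes lower in wild-type spleen whose gap was smaller or not called in vavCre. Cd63, a lysosomal tetraspanin, was still lower, with 3617, 2958 and 3614 in vavCre spleen and 8576, 9379 and 7177 in vavCre marrow (-1.30 ± 0.15, adjusted p = 2.4e-05), against -2.62 in wild type. Platelet factor 4 (Pf4) had 9144, 11010 and 14120 in vavCre spleen and 15850, 16840 and 17850 in vavCre marrow (-0.58 ± 0.18, adjusted p = 0.0819), against -2.64 in wild type. Neither gene's groups overlapped, yet Pf4 missed the threshold. Stab1, a scavenger receptor of sinusoids and macrophages, had 6589, 7539 and 8392 in vavCre spleen and 8130, 10240 and 10490 in vavCre marrow and overlapped (-0.36 ± 0.18), against -2.39 in wild type. The chemokine Ccl7, the selenium transporter Sepp1, Ms4a7 and Wfdc17 had values of -3.22, -0.57, -0.94 and -0.94 in wild type and were not called in vavCre (0.56, 0.20, -0.05 and 0.44). Gpr34, a lysophosphatidylserine receptor, was the 1 gene of the reverse kind, with 296, 363 and 408 in vavCre spleen and 599, 845 and 532 in vavCre marrow (-0.87 ± 0.29, adjusted p = 0.113), against 1.29 in wild type. The genotype differences of Ccl7, Ms4a7 and Gpr34 were lost without most single libraries, with adjusted p up to 0.23, 0.0991 and 0.175.

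**Figure D4:**
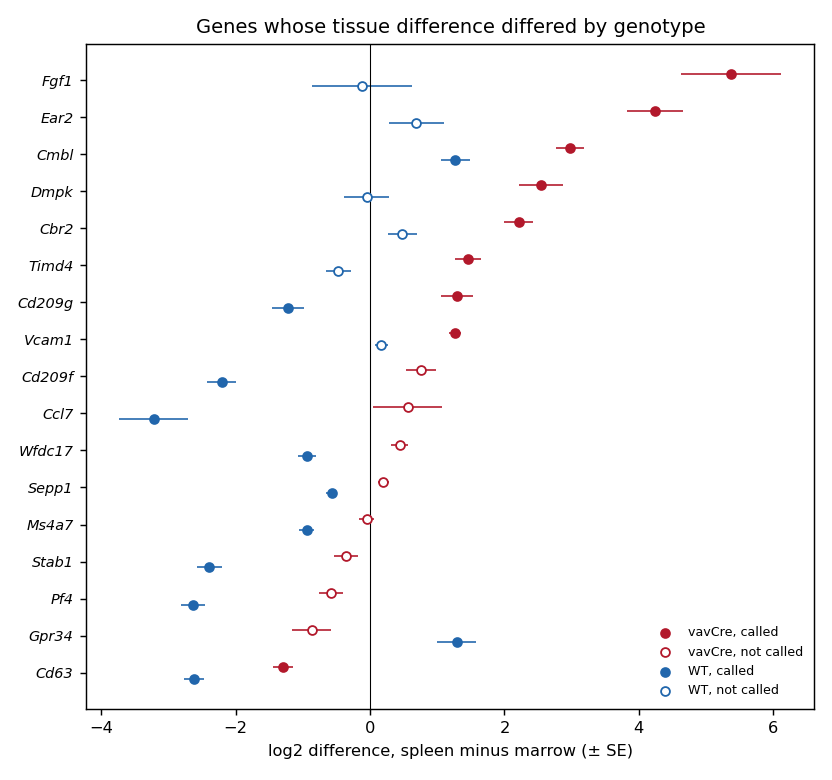
Spleen minus marrow log2 difference (± SE) of 17 genes whose tissue difference differed between genotypes, with vavCre in red above wild type in blue and filled points for called differences. In 16 of the 17 the vavCre point lies to the right of the wild-type point, and Gpr34 is the exception.

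Other gene groups ranged from no calls to calls in a large share of members. Growth factor and cytokine receptors had 0 of 30 called either way (median 0.20), and interferon-stimulated genes 0 of 27 (median 0.48). Cholesterol synthesis genes had 0 of 18 (median -0.34). The summed level of the interferon-stimulated genes was 37875, 30452 and 20680.4 in vavCre spleen and 31882, 23790.2 and 16561 in vavCre marrow. In both tissues it was highest in replicate 1 and lowest in replicate 3, the ranges overlapped, and each spleen library was above the marrow library of its number. Cell cycle genes had 1 of 36 lower and 0 higher (median 0.00), against 0 in wild type. That median ran from -0.20 to 0.21 over the alternatives. Lysosome genes had 5 of 27 higher and 2 lower (median 0.15), and included Ctsc, the activator of granule proteases (0.47 ± 0.09, adjusted p = 0.00628). Of these 7 calls 2 held under every alternative. The list had 1 higher and 1 lower without vavCre spleen replicate 1, 2 and 1 without vavCre marrow replicate 2, and 3 higher without vavCre marrow replicate 3. Mitochondrial respiration genes had 1 of 28 higher and 0 lower (median 0.12), and glycolysis genes 1 of 24 higher and 0 lower (median 0.00). Macrophage transcription factors had 6 of 39 higher and 0 lower (median 0.14), 5 of them also called in wild type, and integrins 3 of 20 higher and 0 lower (median 0.13). None of the 3 integrin calls held under every alternative. The integrin list had 0 calls without vavCre spleen replicate 1 or 2 or vavCre marrow replicate 2, and 1 call with a median of -0.05 without vavCre spleen replicate 3. Chemokine and chemoattractant receptors had 1 of 28 higher, Ccr3, and 0 lower (median 0.49). Pan-macrophage genes had 5 of 16 higher and 1 lower (median 0.29). Of these, the LPS co-receptor Cd14 had 1422, 1162 and 1132 in vavCre spleen and 425, 674 and 523 in vavCre marrow (1.21 ± 0.25, adjusted p = 0.00747), and the pore-forming Mpeg1 was lower (-0.58 ± 0.13, adjusted p = 0.0175). Both calls were lost without vavCre spleen replicate 1 (adjusted p = 0.0533 in Cd14 and 0.0705 in Mpeg1). None of the 6 pan-macrophage calls held under every alternative, and 1 was left without vavCre spleen replicate 1.

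**Figure D5:**
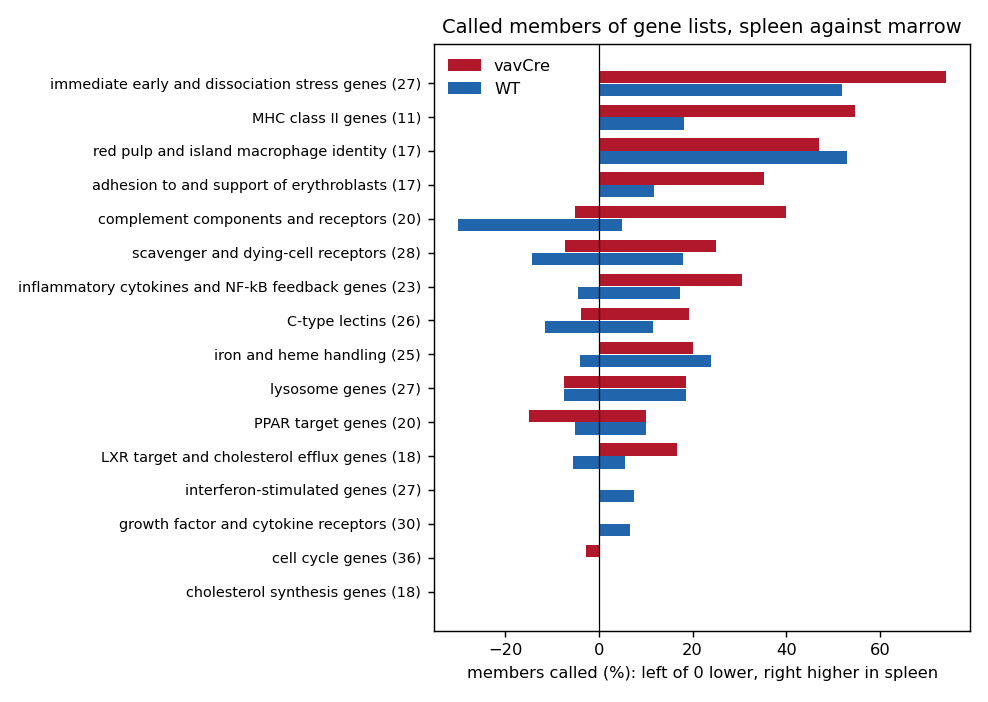
Share of tested members of 16 gene lists that were called higher (right of 0) or lower (left of 0) in spleen, with vavCre in red above wild type in blue and the number tested in brackets. Immediate early genes have the longest vavCre bar, 20 of 27. Called complement genes lie mostly right of 0 in vavCre and left of 0 in wild type, while the test between genotypes called 1 of 20.

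Markers of other blood cells were detected in both vavCre tissues. Erythroid genes had 6 of 25 called higher and 0 lower (median 0.82), against 0 in wild type, and the test between genotypes called 0. The 6 included the factor Tal1, the membrane proteins Slc4a1 and Rhag, and the carbonic anhydrases Car1 and Car2. Slc4a1, the band 3 anion exchanger, had 1034, 919 and 904 in vavCre spleen and 705, 508 and 330.4 in vavCre marrow (0.95 ± 0.24, adjusted p = 0.0354). None of the 6 calls held under every alternative, and there were 0 without vavCre spleen replicate 1 or 3 and 2 without vavCre marrow replicate 2 or 3. The globin genes were not called, and took 1.21 ± 0.241% (SD, n = 3) of the signal in vavCre spleen and 1.12 ± 0.219% (SD, n = 3) in vavCre marrow (exact permutation test, two-sided, p = 0.7, with 0.1 the smallest value it allows). Neutrophil genes summed to 3039 to 6263 in vavCre spleen and 2227 to 4497 in vavCre marrow, with only Ltf called. Eosinophil, basophil and mast cell genes had 2 of 12 called higher and 1 lower (median 0.73), and with DESeq2 2 higher and 5 lower. That median ran from -0.31 to 2.0 over the alternatives. The basophil genes Mcpt8 and Prss34, singled out after their values were seen, had 1.84, 4.24 and 5.55 and 4.3, 4.24 and 4.76 in vavCre spleen. In vavCre marrow they had 1017, 1741 and 22.6 and 1591, 2227 and 13.6, so replicate 3 lay far below the others and neither gene passed (limma, adjusted p = 0.196 in Mcpt8 and adjusted p = 0.215 in Prss34). The mast cell and basophil protease Cpa3 was called lower, with 1.23, 5.09 and 0.793 in vavCre spleen and 109, 334 and 20.4 in vavCre marrow (-4.99 ± 1.35, adjusted p = 0.0481), a call lost in 14 alternatives.

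Dendritic cell genes had 1 of 15 higher and 0 lower, mature B cell genes 1 of 14 higher and 0 lower, and megakaryocyte genes 1 of 15 higher and 0 lower. T and NK cell genes had 1 of 20 lower, Cd4, and 0 higher, although their median was 1.31. Without vavCre spleen replicate 3, which had few T cell reads, 5 were higher and 1 lower, and with DESeq2 4 were higher and 3 lower. The T cell receptor gene Trac, chosen after its values were seen, had 68.7, 67.8 and 1.59 in vavCre spleen and no reads in vavCre marrow. Monocyte genes had 2 of 18 higher, Treml4 and Nr4a1, which the identity and immediate early lists also hold. The summed level of the monocyte list was 3460.3 to 4146 in vavCre spleen and 1141 to 1562 in vavCre marrow. Treml4 and Nr4a1 made up most of it in every vavCre spleen library and a smaller part in every vavCre marrow library. Endothelial genes had 2 of 16 higher, the adhesion molecule Pecam1 and the scavenger receptor Stab2, and sums of 1943 to 2131 in vavCre spleen and 988 to 1176 in vavCre marrow. Osteoclast genes had 1 of 8 higher, the acid phosphatase Acp5 that iron-handling macrophages also make, and 0 lower. Blood progenitor genes had 0 of 11 called either way, with sums of 211 to 299 in vavCre spleen and 430.1 to 664 in vavCre marrow. The part of these cells in the tissue differences was not tested.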

How the data were processed

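Each library came from poly(A) RNA of 1000 sorted cells, copied by PCR before tagmentation, as the labels' protocols describe. The submitters' processing notes name the aligner STAR, edgeR and the build GRCm38, without versions. The table the authors deposited holds a signal, read counts normalised between libraries. Its header gives no unit. A single factor per library turned 97.7 to 100% of its values up to 500 reads into whole reads, to within 0.1 read. The design allowed limma or a count test, and limma was used because values are not raw counts. Tested genes, 15130 of 22524, had values of 1 or more in 2 or more of the 12 libraries. limma 3.58.1 in R 4.3.3 (trend, robust; pseudocount 1; 8 residual degrees of freedom) fitted 1 mean per group. It was also run on simulated counts with an assumed spread, which does not show its error rate in these libraries. No source says whether counting used strand. Reads of overlapping or antisense genes and of close paralogs may be shared. Coordinates are GENCODE vM21, 1-based.

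Members and all 40 gene lists were chosen with earlier results of these data known, so counts over lists are descriptions. Named genes followed a rule: Pparg and Spic, the 15 largest called differences each way without overlap and with a mean of at least 20, the 6 largest shared each way, up to 8 each way of the genotype test, genes of opposite sign, and up to 4 called members per list, or the 2 highest where none was called. Predicted, ribosomal, mitochondrial, small RNA, antigen receptor and sex-linked genes were not ranked. Some genes that the rule or a list holds are not reported here. Others named were chosen after their values were seen. Where a tissue had no reads, the other tissue's mean was set against a floor of 3 reads per library, without allowance for its spread. Totals of 1 to 3 reads carry a 95% interval. Alternatives were filters, pseudocounts of 0.1 and 5, a size limit, compared groups alone, replicate blocks, median-ratio scaling, edgeR 4.0.16 and DESeq2 1.42.0 on recovered reads, and leaving out each library.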

Additional observations from a re-analysis of the deposited data

Results flagged for a closer look

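For 17 genes given here the spleen minus marrow difference in vavCre and the same difference in wild type were not equal by the test of the difference itself (limma, Benjamini-Hochberg adjusted p under 0.05 over 15130 genes). The vavCre difference minus the wild-type difference, in log2 units, was 5.49 in Fgf1, a fitted value that depends on the pseudocount because vavCre marrow held 2 reads. It was 3.78 in Ccl7, 3.55 in Ear2, 2.97 in Cd209f, 2.59 in Dmpk and 2.52 in Cd209g. It was 2.05 in Pf4, 2.03 in Stab1, 1.93 in Timd4, 1.73 in Cbr2, 1.70 in Cmbl and 1.39 in Wfdc17. It was 1.32 in Cd63, 1.10 in Vcam1, 0.89 in Ms4a7, 0.77 in Sepp1 and -2.17 in Gpr34.

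The calls of Timd4, Cd209g, Cd209f, Cd63, Pf4, Stab1, Sepp1, Wfdc17 and Vcam1 held under every alternative run. The other 8 lost theirs in 1 or more.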

How the results depend on the processing

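No named gene called in vavCre changed sign. The median over all genes was 0.03, and -0.01 in DESeq2. List medians that changed sign were those of integrins (-0.05 to 0.42), cell cycle (-0.20 to 0.21) and glycolysis genes (-0.09 to 0.12). The medians of CXC and other chemokines (-0.3 to 0.85) and of eosinophil, basophil and mast cell genes (-0.31 to 2.0) did so too. So did those of endothelial (-0.74 to 0.46) and Y-linked genes (-2.3 to 1.92). On recovered reads DESeq2 called 950 genes in vavCre (364 lower in spleen), 952 in wild type, 378 shared and 93 between genotypes, and edgeR called 31 between genotypes with either scaling. With the compared groups fitted alone, vavCre had 319 calls (240 higher, 79 lower) and 155 were shared. No filter left 11 genotype calls. A limit of 1 on the absolute log2 difference left 82 lower in vavCre, 329 in wild type and 131 shared. Leaving out each library in turn gave 270 to 621 vavCre calls (215 to 465 higher, 55 to 156 lower), 268 to 642 in wild type, 150 to 254 shared and 11 to 23 between genotypes. The causes were not tested.

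The replicate numbers are shared by all groups but are not stated to mark animals. For that reason the numbers were not taken as pairs. Deviations of same-numbered libraries from their group means correlated at -0.0448 to 0.0637 over all genes, libraries of different genotypes included. Between spleen and marrow of the same genotype they correlated at -0.0257 to 0.0252 in vavCre and 0.0157 to 0.0476 in wild type. Deviations over all genes also hold each library's noise, so these values cannot tell whether animals were shared. Y-linked signal matched by number in both genotypes. Interferon-stimulated genes were highest in replicate 1 and lowest in replicate 3 of all 4 groups, with wild-type sums of 23727, 14733 and 13788 in spleen and 19843, 13220.5 and 11452 in marrow. With the replicate number as a block, vavCre had 494 calls, wild type 537, 222 were shared and 13 differed between genotypes. That block called 1 of the 27 interferon-stimulated genes, Ifit3, and lost Itgad (adjusted p = 0.0566). As a block within each genotype, an alternative chosen after seeing the data, they were 434, 492, 204 and 13. Of 107 named genes called in vavCre, 66 kept the call in all alternatives that gave a value. Depth was lower in marrow, which limits what can be said of genes near 0 there.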

Other observations

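Y-linked genes matched between same-numbered libraries of the tissues in both genotypes. Ddx3y had 1289, 31.4 and 1557 in vavCre spleen and 1681, 20.6 and 1926 in vavCre marrow, so replicate 2 was low in both. Eif2s3y had 987, 23.7 and 1000 in vavCre spleen and 712, 13.3 and 799 in vavCre marrow. In wild type the summed level of the 4 Y-linked genes was 2998, 3427 and 42.4 in spleen and 3772, 2929 and 72.1 in marrow, so replicate 3 was low in both. Each of the 4 groups thus held 2 libraries with high and 1 with low Y-linked signal.

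Natural killer cell genes stood high in vavCre marrow replicate 2 alone. Gzma had 7.98, 4.24 and 3.17 in vavCre spleen and 2.09, 573 and 0 in vavCre marrow, and Ncr1 had 0 in every vavCre spleen library and 0, 136 and 0 in vavCre marrow. Neither passed the test (limma, adjusted p = 0.887 in Gzma and adjusted p = 0.525 in Ncr1).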
